A study of Mus musculus with 6 samples.

Results

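Transcripts of the interleukin-1 (IL-1) family were examined in mouse submandibular glands, a pair of major salivary glands, with and without Myd88. The members were 10 genes listed by name, 4 ligands (Il1a, Il1b, Il18 and Il33), 2 soluble inhibitors (Il1rn and Il18bp), 3 chains of signalling receptors (Il1r1, Il1rap and Il18r1) and 1 decoy receptor (Il1r2), out of 19505 named genes on the array. All 10 were found, each with 1 probe set. Glands came from female NOD mice aged 10 weeks, 3 homozygous for a targeted Myd88 allele (Myd88-/-, strain label NOD.B6-Myd88−/−) and 3 with the wild-type gene (Myd88+/+, strain label NOD.B6-Myd88+/+), and both groups share the NOD background, which is prone to autoimmune inflammation of salivary glands. The labels do not describe the targeted allele further, nor whether the mice were littermates. Each gland was measured on 1 Clariom S array, and values are log2 expression values after robust multi-array averaging (RMA).

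IL-1 family ligands are released by damaged epithelium and stroma or by activated macrophages. IL-1 alpha and IL-1 beta bind the chain Il1r1, IL-18 binds Il18r1 and IL-33 binds the receptor known as ST2, each of which then recruits an accessory chain. The intracellular domains of these receptors pass the signal to Myd88 and on to NF-kB. The receptor antagonist Il1rn occupies Il1r1 without signalling, the decoy Il1r2 binds IL-1 but lacks the signalling domain, and Il18bp captures IL-18 outside the cell.

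Of the 10 members, 6 had a lower and 4 a higher mean in Myd88-/- than in Myd88+/+ glands, with a median log2 difference of −0.10. Among all 22206 tested probe sets, 47.5% had a lower mean and the median difference was 0.02. Limma's test called 0 members at an adjusted p under 0.05, and 0.0% of all probe sets. At an unadjusted p under 0.05 the members included 1 lower gene, Il18bp, against 5.55% of all probe sets, and 1 higher gene, Il1rap, against 4.5%. The groups did not overlap for 1 higher member, again Il1rap, and for 0 lower members, where 7.84% and 7.25% of all probe sets did so. Shares of this size are close to those of the whole array.

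**Figure D1:**
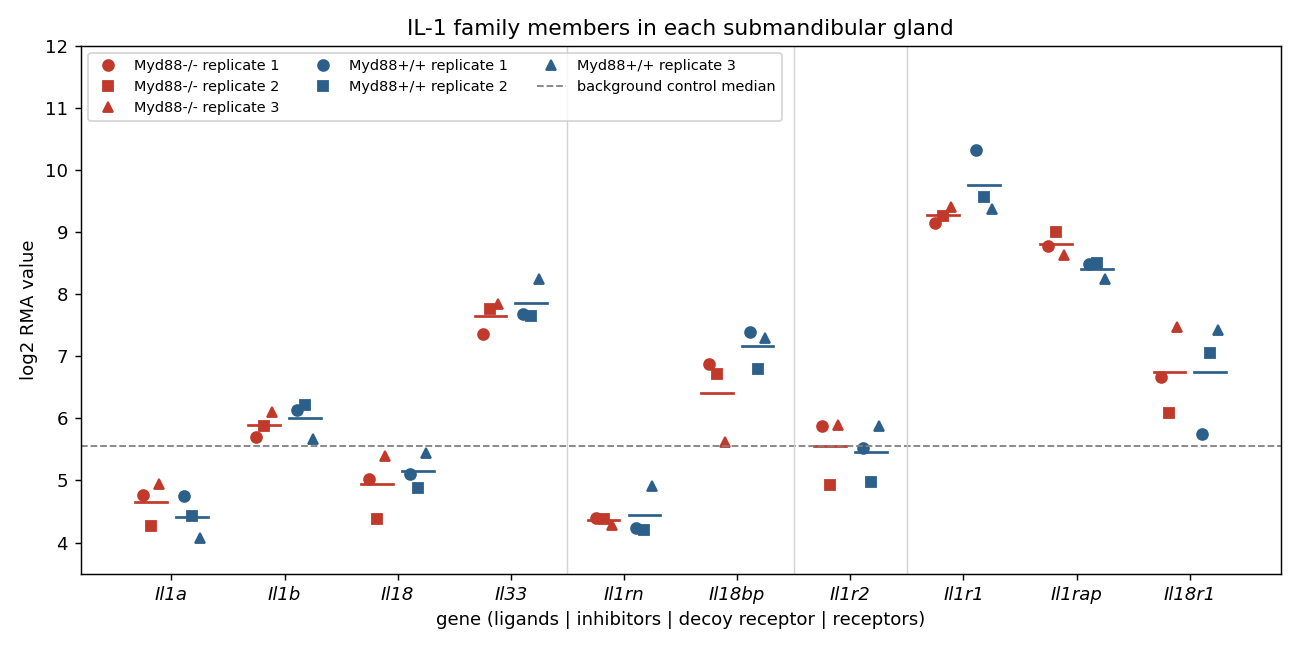
Log2 RMA value of each of the 10 members in each gland, Myd88-/- (red) left of Myd88+/+ (blue), with bars at the group means and a dashed line at the background control median of 5.55. Il1a, Il1rn and Il18 sit under the line in all 6 glands, and Il1rap is the one gene whose groups do not overlap.

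The gland's own markers were bright in both groups. The mean level per gland over 5 genes listed as acinar markers was 17.24 to 17.44 in Myd88-/- and 17.31 to 17.64 in Myd88+/+ glands. The 5 include the water channel Aqp5 and the secretory protein Smgc, and their cell type was not checked here. Array medians lay between 6.0 and 6.1. The signal range, taken between the percentiles 10 and 90 of an array, was 6.83 to 7.13 log2 units in Myd88-/- and 7.10 to 7.30 in Myd88+/+ arrays. As a check of the labels, Myd88 had 1 probe set, which read 7.33, 6.80 and 7.47 in Myd88-/- replicates 1, 2 and 3, against 7.81, 7.86 and 7.53 in the Myd88+/+ glands. Each Myd88-/- gland lay below each Myd88+/+ gland, by a log2 difference of −0.53 that did not pass (limma adjusted p = 0.462). The labels do not tell whether the allele deletes the stretch this probe set reads, and if it does not, the probe set checks nothing.

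To show how differently the control regions of these genes are built, the 250 bases before the annotated start are printed for 4 members, from RefSeq on the C57BL/6J build GRCm38.p6. They are the neighbouring ligand genes Il1a and Il1b, which were dim in these glands, and Il18bp and Il1rap, the lower and the higher member with the smallest unadjusted p. Capitals mark the letters TATAAA, the core of a TATA box, searched on both strands.
Il1a (chr2:129309973-129310222, - strand): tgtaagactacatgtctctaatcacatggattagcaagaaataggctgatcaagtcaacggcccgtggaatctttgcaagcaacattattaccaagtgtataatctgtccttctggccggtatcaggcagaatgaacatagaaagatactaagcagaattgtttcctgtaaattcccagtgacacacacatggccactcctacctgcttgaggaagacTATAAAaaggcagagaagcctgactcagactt
Il1b (chr2:129371140-129371389, - strand): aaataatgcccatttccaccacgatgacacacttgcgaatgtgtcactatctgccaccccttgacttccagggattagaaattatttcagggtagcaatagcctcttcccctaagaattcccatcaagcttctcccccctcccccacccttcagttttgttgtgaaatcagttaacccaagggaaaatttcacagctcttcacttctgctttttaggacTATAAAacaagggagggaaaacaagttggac
Il18bp (chr7:102018233-102018482, - strand): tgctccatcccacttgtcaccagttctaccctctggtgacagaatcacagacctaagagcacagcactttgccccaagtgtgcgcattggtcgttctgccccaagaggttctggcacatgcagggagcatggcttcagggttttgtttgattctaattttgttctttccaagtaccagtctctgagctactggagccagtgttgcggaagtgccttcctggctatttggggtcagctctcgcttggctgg
Il1rap (chr16:26581455-26581704, + strand): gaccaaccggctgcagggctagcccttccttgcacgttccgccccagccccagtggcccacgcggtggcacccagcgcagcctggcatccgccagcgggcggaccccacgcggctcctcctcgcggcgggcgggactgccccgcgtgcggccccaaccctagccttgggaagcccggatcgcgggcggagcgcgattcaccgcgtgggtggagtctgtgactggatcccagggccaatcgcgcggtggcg

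Within 300-base windows, which run to 50 bases after the start, Il1a holds TATAAA from position −32 and Il1b from position −31 relative to the start, the usual place of a TATA box. These letters stand somewhere in the window in 13.6% of the 32851 windows of the RefSeq table, and in 6 of the 16 windows of the 10 members. Il1rap has the opposite build, with 74.4% G and C and 30 CpG pairs in its 250 bases, against a median of 52.4% and 6 over all windows. Il18bp has 52.4% and 4, Il1a 42.4% and 3, and Il1b 44.4% and 2. The STAT motif TTCNNNGAA was found in 2 of the 16 member windows, 1 of Il1r2 and 1 of Il18r1, and in 8.3% of all windows. The interferon regulatory factor motif GAAANNGAA was found in 1, after the start of Il1rap, and in 8.56% of all windows, and the kB motif GGNNTTTCC in 2 overlapping windows of Il1rn and in 5.82% of all. Neither of the interferon-related motifs stands in the Il18bp window, as in most windows at these shares, so nothing is read from their absence. All motifs were read on both strands, and a match is a description of letters, not a known binding site. The NOD sequence of these windows was not used here.

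None of the 4 ligands passed the test, and 2 of them were under background. Il1b, the form secreted by macrophages after caspase-1 cuts its precursor, read 5.70, 5.88 and 6.10 in Myd88-/- replicates 1, 2 and 3, against 6.13, 6.21 and 5.67 in Myd88+/+ replicates 1, 2 and 3. The 2 groups overlapped. All 6 values lay just over the background control median of 5.55, which is the median of 23 background probe sets that ran from 2.95 to 6.85. Against the array's 5222 negative control probe sets Il1b did not stand out, since its mean exceeded 46.2% of theirs and both group means were under their median of 6.14. The log2 difference was −0.11 with a standard error (SE) of 0.20 (limma adjusted p = 0.886). Its 95% interval allowed a Myd88-/- level between 0.676 and 1.27 times that of Myd88+/+ glands on the array's scale.

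Il1a, an alarmin held in epithelial cells until they are damaged, read 4.76, 4.27 and 4.94 in Myd88-/- glands, against 4.75, 4.43 and 4.07 in Myd88+/+ glands. Every value was under the background control median, so the size of the difference of 0.24 (SE 0.24, limma adjusted p = 0.762) is uncertain. Il18, which epithelium and macrophages store as a precursor, was also under that median in all 6 glands. It read 5.03, 4.38 and 5.40 in Myd88-/- glands, against 5.11, 4.88 and 5.45 in Myd88+/+ glands, with a difference of −0.21 (SE 0.27, limma adjusted p = 0.826). Il18 lies on chromosome 9, as Myd88 does, with 644 protein-coding genes between them in the RefSeq annotation.

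Il33 encodes a nuclear alarmin of epithelium, endothelium and fibroblasts. It was over the background control median in all 6 glands, and its mean exceeded that of 80.6% of the negative control probe sets, the highest share among the 4 ligands. Il33 read 7.36, 7.76 and 7.84 in Myd88-/- replicates 1, 2 and 3, against 7.68, 7.65 and 8.24 in Myd88+/+ replicates 1, 2 and 3. The groups overlapped, and the highest value belonged to Myd88+/+ replicate 3. The difference was −0.21 (SE 0.22, limma adjusted p = 0.785), with an interval from 0.614 to 1.22 times the Myd88+/+ level.

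Among the soluble inhibitors, Il18bp showed the largest mean difference of the 10 members. The product binds IL-18 and keeps it from its receptor, and interferon-gamma is known to induce the gene. Il18bp read 6.88, 6.72 and 5.62 in Myd88-/- replicates 1, 2 and 3, against 7.39, 6.80 and 7.29 in Myd88+/+ replicates 1, 2 and 3. Myd88-/- replicate 3 was far below the rest of its group, while Myd88-/- replicate 1 lay above Myd88+/+ replicate 2, so the groups overlapped. The mean over the 6 glands exceeded that of 64.2% of the negative control probe sets. Means were 6.40 ± 0.69 for the Myd88-/- and 7.16 ± 0.32 for the Myd88+/+ group (SD, n = 3 each), which differ by −0.76 on the log2 scale (SE 0.33), a 1.69-fold lower level. This did not pass (limma unadjusted p = 0.0443, adjusted p = 0.484), and the two-sided exact permutation p was 0.2, where 3 mice against 3 cannot give less than 0.1. Without Myd88-/- replicate 3 the difference was −0.36 (limma adjusted p = 0.772), and it ran from −0.99 to −0.64 when another mouse was left out.

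Il1rn, the IL-1 receptor antagonist, was under the background control median in all 6 glands. It read 4.40, 4.38 and 4.29 in Myd88-/- glands, against 4.24, 4.20 and 4.91 in Myd88+/+ glands, and the difference of −0.09 (SE 0.22, limma adjusted p = 0.915) turned to 0.14 without Myd88+/+ replicate 3. That one mouse held the highest value and also set the spread of its group, 0.40 (SD, n = 3) against 0.06 (SD, n = 3) in Myd88-/- glands.

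Of the 3 receptor chains, Il1r1 and Il1rap had means over those of 94.0% and 89.9% of the negative control probe sets, and Il18r1 over 63.4%. Il1r1, the signalling receptor for both forms of IL-1, read 9.14, 9.26 and 9.41 in Myd88-/- replicates 1, 2 and 3, against 10.33, 9.56 and 9.37 in Myd88+/+ replicates 1, 2 and 3. Myd88+/+ replicate 1 stood above the other 5 glands, and Myd88+/+ replicate 3 lay within the Myd88-/- range. Means were 9.27 ± 0.13 for the Myd88-/- and 9.75 ± 0.51 for the Myd88+/+ group (SD, n = 3 each), with a difference of −0.48 (SE 0.25, limma adjusted p = 0.559). Without Myd88+/+ replicate 1 the difference was −0.19.

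Il1rap, the accessory chain that the IL-1, IL-33 and IL-36 receptors share, had the opposite sign. It read 8.78, 9.01 and 8.64 in Myd88-/- replicates 1, 2 and 3, against 8.48, 8.50 and 8.25 in Myd88+/+ replicates 1, 2 and 3. Each Myd88-/- gland was above each Myd88+/+ gland, though the nearest values, 8.64 and 8.50, were close together. Means were 8.81 ± 0.19 for the Myd88-/- and 8.41 ± 0.14 for the Myd88+/+ group (SD, n = 3 each), which differ by 0.40 on the log2 scale (SE 0.18), a 1.32-fold higher level. It did not pass (limma unadjusted p = 0.0474, adjusted p = 0.489), and a two-sided exact permutation test gave p = 0.1, which is the lowest value this design allows. Leaving out each mouse in turn gave 0.30 to 0.49. Il1rap was also the member with the tightest replicates, at a pooled within-group SD of 0.17, against a median of 0.25 over all probe sets.

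Il18r1, the chain that binds IL-18 and is known from T and NK cells, showed the widest spread between mice of 1 genotype. It read 6.66, 6.09 and 7.48 in Myd88-/- replicates 1, 2 and 3, against 5.75, 7.05 and 7.42 in Myd88+/+ replicates 1, 2 and 3. The lowest and the second highest value both belonged to Myd88+/+ glands. The pooled within-group SD of 0.79 was larger than that of 99.5% of all probe sets, and the interval of the difference of 0.01 (SE 0.45, limma adjusted p = 0.998) ran from 0.496 to 2.04 times the Myd88+/+ level. Without Myd88+/+ replicate 1 the difference was −0.49.

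Il1r2, the decoy receptor of neutrophils and macrophages, straddled the background control median, with a mean over that of 36.5% of the negative control probe sets. It read 5.88, 4.92 and 5.89 in Myd88-/- glands, against 5.53, 4.98 and 5.88 in Myd88+/+ glands. Both replicates numbered 2 were lowest in their group, and the groups covered nearly the same range. The difference was 0.10 (SE 0.31, limma adjusted p = 0.94).

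**Figure D2:**
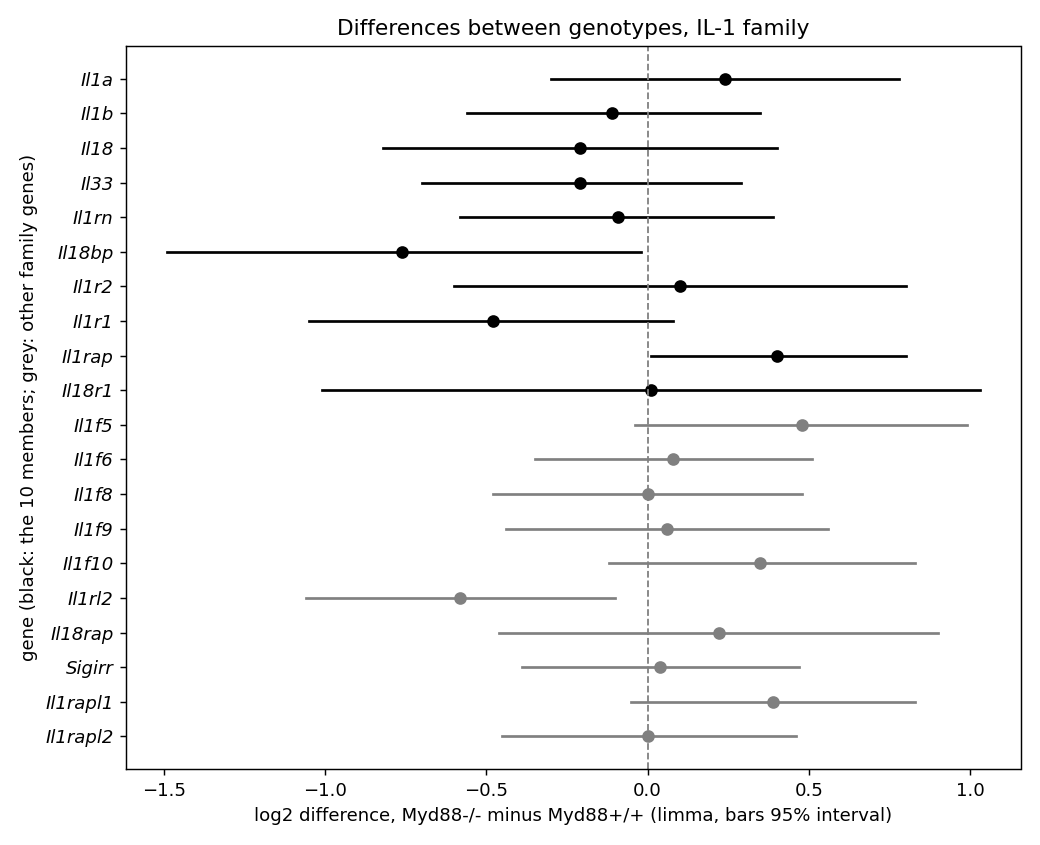
Log2 difference, Myd88-/- minus Myd88+/+, for the 10 members (black) and 10 further genes of the family (grey), with limma's 95% interval, which is not adjusted for the number of genes. The intervals of Il18bp and Il1rl2 lie below 0 and that of Il1rap above it, and no gene passed the adjusted test.

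None of the 10 other measured genes of the family passed either. All 5 further ligand genes had a higher mean in Myd88-/- than in Myd88+/+ glands, with a median difference of 0.08, and 3 of them were under the background control median in both groups. The widest was Il1f5, now called IL-36 receptor antagonist, with 5.40, 5.62 and 6.19 in Myd88-/- glands, against 5.10, 5.19 and 5.49 in Myd88+/+ glands. Every Myd88+/+ value of Il1f5 was under the background control median, and its mean exceeded 36.3% of the negative control probe sets. The difference of 0.48 did not pass (limma adjusted p = 0.534), and its size is uncertain at this level. The IL-36 ligand genes Il1f6, Il1f8 and Il1f9 had 0.08, 0.00 and 0.06, and Il1f10 had 0.35.

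Among 5 further receptor genes, 1 was lower, Il1rl2, the IL-36 receptor of epithelium and dendritic cells. It read 6.61, 6.70 and 7.18 in Myd88-/- replicates 1, 2 and 3, against 7.44, 7.64 and 7.15 in Myd88+/+ replicates 1, 2 and 3. The groups overlapped only through Myd88-/- replicate 3 and Myd88+/+ replicate 3, and the difference was −0.58 (SE 0.21, limma unadjusted p = 0.0228, adjusted p = 0.44). Sigirr, an inhibitory receptor of the family, had 0.04. Il18rap, the signalling partner of Il18r1, had 0.22 and read 6.29, 5.90 and 5.82 in Myd88-/- glands, against 5.06, 6.07 and 6.24 in Myd88+/+ glands. Myd88+/+ replicate 1 was thus the lowest of the 6 glands for both chains of the IL-18 receptor. Il1rapl1 and Il1rapl2, receptors of neurons, had 0.39 and 0.00, with both group means under the background control median.

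The receptor genes lie close together on chromosome 1 in the order Il1r2, Il1r1, Il1rl2, Il18r1 and Il18rap, of the genes analysed here. A further coding gene lies between Il1rl2 and Il18r1. Il1rl1, which encodes ST2, had no probe set under that name and was not measured. The differences of the measured genes ran 0.10, −0.48, −0.58, 0.01 and 0.22 along that order. The adjoining Il1r1 and Il1rl2 thus both had lower means, but neither passed (limma adjusted p = 0.559 and 0.44). Whether the nearest measured genes on either side differed cannot be told. Il1r2 was over the background control median in only 3 of the 6 glands. The interval of Il18r1 ran from 0.496 to 2.04 times the Myd88+/+ level. The ligand genes Il1a and Il1b adjoin each other on chromosome 2, with 0 protein-coding genes between them, and had 0.24 and −0.11.

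Whether a decoy or inhibitor differed from its partner was compared within each array, where a difference of 2 log2 values removes what the array shares. Such a value depends on the probes, so only its change between genotypes can be read. Il1r2 minus Il1r1, the decoy against the signalling receptor, read −3.26, −4.34 and −3.52 in Myd88-/- glands, against −4.81, −4.58 and −3.49 in Myd88+/+ glands. The change of 0.59 was within the spread of the mice (two-sided exact permutation p = 0.3, adjusted to 0.8 over 4 pairs, where a single test could not fall under 0.1), and Il1r2 was over the background control median in only 3 of the 6 glands. The other pairs were Il1rn minus Il1b, Il18bp minus Il18 and Il33 minus Il1a. Each holds a gene that was under that median in all 6 glands, Il1rn, Il18 or Il1a, so these differences do not measure whether the partners changed relative to each other, and no result is read from them.

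The machinery that frees and relays these cytokines was read from lists of genes with known roles. Of 19 inflammasome and protease genes, 12 had a lower and 7 a higher mean in Myd88-/- glands, 0 passed limma's adjusted test and the median difference was −0.14. The groups did not overlap for 3 lower and 1 higher gene of the 19, beside the 7.25% and 7.84% of all probe sets given above. At an unadjusted limma p under 0.05 there were 3 lower and 0 higher genes, beside 5.55% and 4.5% of all probe sets. Casp1, the protease that cuts the IL-1 beta and IL-18 precursors, read 7.07, 7.33 and 6.74 in Myd88-/- glands, against 7.59, 7.79 and 7.82 in Myd88+/+ glands, a difference of −0.69 (limma adjusted p = 0.382). Casp4, which senses bacterial lipopolysaccharide inside cells, read 6.63 ± 0.12 for the Myd88-/- and 7.55 ± 0.46 for the Myd88+/+ group (SD, n = 3 each), and Aim2, a sensor of cytosolic DNA, had −0.73. Aim2 was near background, over the background control median in 4 of the 6 glands and over 47.4% of the negative control probe sets. Cma1, a protease of mast cells, had 0.38 with every value under the background control median. In 11 of the 19, among them the sensor genes Nlrp3 and Nlrc4, both group means were under that median.

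Of 14 measured genes that carry the signal from the receptor, 10 had a lower and 4 a higher mean in Myd88-/- glands, with a median of −0.12 and 0 past the adjusted test. Tab1 and Tab2, adaptors of the kinase TAK1, had −0.78 and −0.51, Rela, an NF-kB subunit, had −0.36, and Myd88 itself −0.53. Their limma adjusted p-values lay between 0.421 and 0.582. These 4 were the lower genes of the 14 whose groups did not overlap, and 0 of the 14 were higher without overlap, beside 7.25% and 7.84% of all probe sets. Myd88, counted among the 4, is the targeted gene that defines the groups, so its place there is no result about the pathway.

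Genes that IL-1 is known to induce were split, with 9 of 19 lower and 10 higher in Myd88-/- glands, 0 past the adjusted test and a median of 0.04. The lower side was led by Steap4 and Lcn2, with means over those of 92.4% and 73.6% of the negative control probe sets. Steap4, a metalloreductase, read 8.59, 8.73 and 8.55 in Myd88-/- replicates 1, 2 and 3, against 9.49, 9.38 and 9.46 in Myd88+/+ replicates 1, 2 and 3. The SD was 0.09 within the Myd88-/- and 0.06 within the Myd88+/+ group (n = 3 each), and the difference was −0.82 (SE 0.16, limma unadjusted p = 0.000508, adjusted p = 0.321). Lcn2, an antimicrobial siderophore binder, read 6.31, 7.17 and 6.09 in Myd88-/- glands, against 7.60, 8.36 and 8.42 in Myd88+/+ glands. Its difference was −1.60 (SE 0.32, limma adjusted p = 0.321), and 2 of its Myd88-/- values were near the negative control median of 6.14. Tnfaip3, which shuts off NF-kB, had −0.56, and the adhesion molecule Vcam1 had −0.53. The textbook IL-1 targets Il6, Cxcl1, Cxcl2 and Ptgs2 were under the background control median in both groups, with 8 of the 19 there in all. Without the dimmest 50% of probe sets, the median of the rest was −0.36.

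The cytokines through which IL-18 and IL-33 act on lymphocytes were dim. Of 5 measured, 1 had a lower mean, Ifng, the product of T and NK cells under IL-18, with 5.70, 4.52 and 5.48 in Myd88-/- glands, against 5.53, 5.41 and 5.71 in Myd88+/+ glands (difference −0.31, limma adjusted p = 0.744). The others had higher means, such as Il5 with 0.13 and Il4 with 0.15. Of the 5, Il13, Il4 and Il9 were under the background control median in both groups, so their differences are not measured. In bulk glands, fewer cells of a type and less RNA per cell cannot be told apart, here as for each member.

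Other gene groups are set beside the members as measured, and in each of them 0 genes passed limma's adjusted test. Of 16 genes induced by interferon-gamma, 15 had a lower and 1 a higher mean in Myd88-/- glands, with a median of −1.47. Cxcl9, a chemokine for T cells, had −4.07 (limma adjusted p = 0.339). Their score, the mean log2 value after subtracting each gene's mean over the 6 glands, was −0.65, −0.67 and −0.69 in Myd88-/- replicates 1, 2 and 3, against −0.23, 0.65 and 1.60 in Myd88+/+ replicates 1, 2 and 3.

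Macrophage and monocyte markers had a lower mean in Myd88-/- glands in 12 of 12 measured genes, with a mean level of 7.26 to 7.53 in Myd88-/- and 8.05 to 9.06 in Myd88+/+ glands, and 0 of the 12 lay under the background control median in both groups. T and NK markers were lower in 10 of 10, with a mean level of 5.21 to 5.53 in Myd88-/- and 5.61 to 6.74 in Myd88+/+ glands, and Cd8a and Klrb1c were under that median in both groups. Fibroblast markers were lower in 7 of 7, at 9.72 to 10.46 in Myd88-/- and 10.63 to 11.27 in Myd88+/+ glands. Basal and myoepithelial markers were lower in 6 of 8, at 8.46 to 9.11 in Myd88-/- and 8.94 to 9.37 in Myd88+/+ glands.

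Neutrophil markers, which would come with Il1b and Il1r2, were lower in 2 of 8, at 4.66 to 4.80 in Myd88-/- and 4.65 to 4.69 in Myd88+/+ glands. These levels are under the background control median. In both groups 6 of the 8 were under it, among them S100a8, Csf3r and Cxcr2, so the count rests mostly on unmeasured genes. Mast cell markers were lower in 4 of 7 and B cell markers in 4 of 6, with medians of −0.05 and −0.03. Both group means were under that median for 5 of the 7 mast cell and 4 of the 6 B cell markers, so these medians rest mostly on unmeasured genes. Cpa3, a mast cell marker, had −1.07, but its Myd88-/- mean of 5.38 was under background, so the size of that difference is uncertain. It was over the background control median in 4 of the 6 glands. Fcer1a, under background in both groups, had 0.56. Acinar markers were lower in 5 of 5, duct markers in 6 of 10, endothelial markers in 5 of 7 and markers of cornified epidermis in 2 of 5, with medians of −0.11, −0.10, −0.27 and 0.04. Of the cornified epidermis markers, 4 of 5 were under the background control median in both groups. The part of any of these lists, the interferon-gamma genes among them, in the members' values was not tested.

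**Figure D3:**
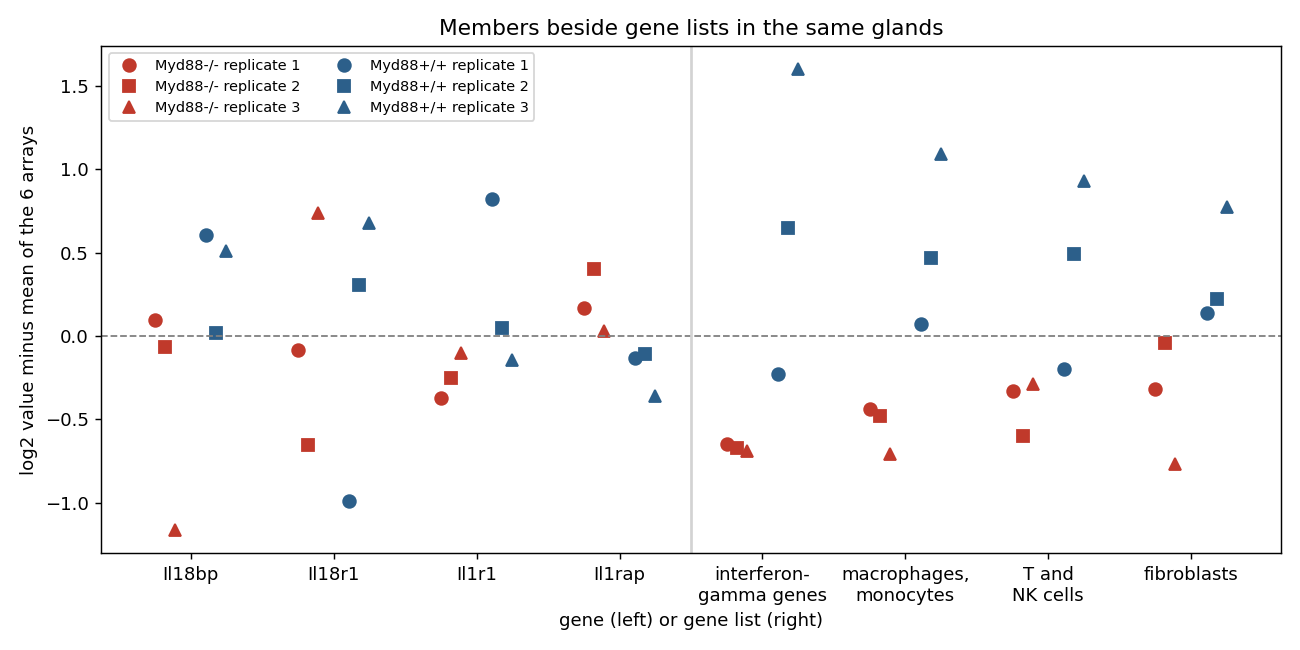
The members Il18bp, Il18r1, Il1r1 and Il1rap (left) and the scores of 4 gene lists (right) in each gland, as log2 value minus the mean of the 6 arrays, Myd88-/- (red) left of Myd88+/+ (blue). The 4 lists drawn are a selection. Their scores put every Myd88-/- gland below every Myd88+/+ gland, though the nearest T and NK scores, −0.29 and −0.20, were close together. Scores of the other marker lists, not drawn, overlapped between the groups. That of the further ligand genes, also not drawn, was higher in every Myd88-/- gland. Among the members, Il18bp, Il18r1 and Il1r1 overlap and Il1rap lies higher in Myd88-/- glands.

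The 3 members with the largest SD over the 6 glands were set against 11393 named genes with a mean above the background control median, by the root mean square difference of centred log2 values. Nearest to Il18bp were Inppl1, a lipid phosphatase, at 0.14, Mmp3, a matrix protease, at 0.16 and Pld2, a phospholipase, at 0.17. Inppl1 read 9.75, 9.67 and 8.81 in Myd88-/- replicates 1, 2 and 3, against 10.28, 9.77 and 10.01 in Myd88+/+ replicates 1, 2 and 3, with the same low value in Myd88-/- replicate 3. Nearest to Il1r2 were Gm21319, Pde6a and Uros, each at 0.16, and nearest to Il18r1 were Drd4 at 0.28 and Olfr657 and Ccdc7a at 0.30. With 6 glands and so many genes, such likeness is a description of these arrays.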

How the data were processed

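Submandibular gland RNA of 6 mice was measured on 1 array each, 3 Myd88-/- and 3 Myd88+/+, grouped by the sample titles. The deposited values are log2 RMA values that the authors made with the Transcriptome Analysis Console, per the labels. The sources used here do not give its version, the RMA variant or the annotation build. That the scale is log2 was inferred from the range, with a ceiling of 19.93. RMA shrinks small differences near background. The replicates are separate mice, and their number limits the precision.

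Of 28846 probe sets, 6640 controls were set aside. The other 22206 were fitted with limma 3.58.1 in R 4.3.3 (lmFit, eBayes), taking Myd88-/- minus Myd88+/+, and p-values were adjusted over all of them by Benjamini-Hochberg, with 0.05 as the threshold. The fit was checked on simulated data. Where a gene had several probe sets, the one with the highest mean was used. Within-array differences were compared by two-sided exact permutation tests in Python 3.11.15.

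Background is the median of 23 background control probe sets, 5.55. A level under it is read as not measured. The median of the 5222 negative control probe sets is higher, at 6.14. Beside the 10 members, 176 of 199 distinct genes of 22 lists had a probe set, members included. The text names all members and further family genes, and of each other pathway list up to 4 genes with the smallest unadjusted p. The members and lists were chosen with earlier results of these data known. Replicate numbers recur in both groups, and deviations of same-numbered arrays correlated at −0.113, −0.155 and −0.019, so no pairing was used. Alternatives were 3 further normalizations, 2 filters on dim probe sets, an intensity trend, array weights, unmoderated variances, the replicate number as a block, the mean over a gene's probe sets and leaving out each mouse. Promoter windows came from RefSeq, GRCm38.p6.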

Additional observations from a re-analysis of the deposited data

How the results depend on the processing

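Of 153 member values under the alternatives, 144 kept their direction and 0 passed the adjusted threshold. The 9 that changed sign belonged to 4 genes. Il18r1 turned to −0.01 with median centring and −0.06 with array weights, and ran from −0.49 to 0.35 without 1 mouse. Without 1 mouse, Il1rn ran from −0.22 to 0.14, Il18 from −0.44 to 0.07 and Il1r2 from −0.14 to 0.42. The cause was not tested, and each of these differences was smaller than its standard error. Within arrays, Il1rn minus Il1b, Il18bp minus Il18 and Il33 minus Il1a each hold a gene under background in all 6 glands. Their values are given without a reading. The change of Il1rn minus Il1b, at 0.01, turned to −0.04 with quantile normalization and −0.03 with cyclic loess, and ran from −0.21 to 0.41 without 1 mouse. That of Il18bp minus Il18, at −0.55, ran from −0.98 to 0.07, and that of Il33 minus Il1a, at −0.45, from −0.70 to −0.08. Of the 10 members, 6 were lower. Without the dimmest 50% of probe sets 3 were, since 5 members were then left out. The 2 members at an unadjusted p under 0.05 became 1 with quantile normalization, median centring, either filter on dim probe sets, an intensity trend, no moderation or the replicate block, 0 with array weights and 0 to 1 without 1 mouse (0 without Myd88+/+ replicate 1). Over the whole array, 0 probe sets were called (2232 at an unadjusted p under 0.05). That became 2 with median centring, 4 with an intensity trend and 0 to 5 without 1 mouse (5 without Myd88+/+ replicate 1), and stayed 0 with the replicate block. None of these calls was a member.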
